A study of Mus musculus with 7 samples.

Results

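The genes described are 10 enzymes that lengthen fatty acids or place double bonds in them: the elongases Elovl1, Elovl3, Elovl5, Elovl6 and Elovl7, the stearoyl-CoA desaturases Scd1 and Scd2, and the fatty acid desaturases Fads1, Fads2 and Fads3. They were taken by symbol from a table of 53715 genes, from a list drawn up with earlier results of these data known, and all 10 were found. Messenger RNA was sequenced from interscapular brown fat, a thermogenic depot of the upper back. The animals were males of the strain C57BL/6J, 10 weeks old. Knockout mice lacking the mitochondrial phosphatase PGAM5 (KO) were set against wild-type mice (WT). Per the labels there were 4 KO and 3 WT individuals, and the table has columns for 3 KO and 3 WT libraries, so KO replicate 4 was not analysed here. Both groups shared strain, sex, age and tissue, and the labels used here do not say how the KO allele was made or whether the groups were littermates.

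Each round of fatty acid elongation is begun by an ELOVL enzyme of the endoplasmic reticulum, which condenses an acyl-CoA with malonyl-CoA and sets which chains are lengthened. ELOVL6 extends the palmitate made by fatty acid synthase, ELOVL3 makes longer saturated and monounsaturated chains and is known as a cold-induced gene of mouse brown fat, and ELOVL5 acts on polyunsaturated chains. SCD enzymes turn saturated acyl-CoAs into monounsaturated ones, while FADS1 and FADS2 desaturate the essential polyunsaturated fatty acids. In liver and fat, Scd1, Elovl6 and Fasn are known targets of the transcription factor SREBP1, encoded by Srebf1.

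The 4 mouse SCD genes lie side by side on chromosome 19, and how alike their sequences are bears on every SCD count given here. A stretch of 90 coding bases is shown for Scd1 (chr19:44400370-44401777, minus strand, across an intron, mm10) with that of Scd4, a family gene outside the 10, and capitals mark the bases at which Scd4 differs from Scd1.
Scd1: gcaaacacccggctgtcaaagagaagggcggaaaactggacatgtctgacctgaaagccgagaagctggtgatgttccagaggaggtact
Scd4: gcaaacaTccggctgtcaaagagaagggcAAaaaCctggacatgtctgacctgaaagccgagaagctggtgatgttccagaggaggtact
Scd2 and Scd3 have the same 90 bases as Scd1 with 0 differences, so a read from this stretch fits any of these 3 genes. Over the whole coding sequence Scd1 was identical to Scd2 at 90.4% of aligned bases and to Scd3 at 91.5%, and the longest runs without a difference were 147 and 185 bases. The genes can be told apart elsewhere, as in the 90 bases of 1 exon at which Scd1 (chr19:44406621-44406710, minus strand) and Scd2 (chr19:44294963-44295052, plus strand) differ most. Capitals mark the 30 differing bases.
Scd1: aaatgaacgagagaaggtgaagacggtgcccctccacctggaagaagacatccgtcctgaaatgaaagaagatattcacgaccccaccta
Scd2: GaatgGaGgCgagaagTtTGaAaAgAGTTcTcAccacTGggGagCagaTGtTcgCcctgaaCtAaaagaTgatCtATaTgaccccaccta
How reads that fit several genes were counted is not given in the sources used here, so counts of Scd2 and Scd3, which are far below those of Scd1, are uncertain.

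The elongases can be separated more easily. Elovl3 shared 61.9% of aligned coding bases with Elovl6 and 61.8% with Elovl5, its nearest relatives among the elongases compared, and its longest run in common with Elovl6 was 16 bases. The most similar 90 bases within an exon, shown because Elovl3 counts are set against Elovl6 counts in the results, lie at chr19:46134467-46134556 in Elovl3 and chr3:129633152-129633241 in Elovl6 (both plus strand, mm10). Capitals mark the 20 bases at which Elovl6 differs from Elovl3.
Elovl3: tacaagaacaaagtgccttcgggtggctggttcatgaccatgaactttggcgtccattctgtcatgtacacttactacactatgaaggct
Elovl6: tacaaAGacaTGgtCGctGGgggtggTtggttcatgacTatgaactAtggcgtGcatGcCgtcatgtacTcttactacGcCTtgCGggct

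Of the 10 genes, 6 lie on chromosome 19. Elovl3 (ENSMUSG00000038754.4) spans chr19:46131897-46135694 on the plus strand, Scd1 (ENSMUSG00000037071.2) chr19:44394455-44407879 on the minus strand and Scd2 (ENSMUSG00000025203.5) chr19:44293674-44306864 on the plus strand. Fads3, Fads2 and Fads1 form a cluster at chr19:10041569-10196877. Elovl6 (ENSMUSG00000041220.10) lies at chr3:129532355-129638495, and Elovl5, Elovl1 and Elovl7 on chromosomes 9, 4 and 13. Exons of Elovl3 overlap the gene Pitx3 on the opposite strand, which had 51 counts in all libraries against 1612 for Elovl3. Exons of Elovl1 overlap Cdc20 in the same way (76 counts for Cdc20, 1288 for Elovl1). The library kit keeps strand, but the strand setting of the counting is not given, so it is unknown whether reads of such pairs were kept apart.

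Total counts ran from 18952348 to 21826942 in the KO libraries and from 18034204 to 33617762 in the WT libraries. Pgam5, the gene removed, had 1, 3 and 11 counts in KO 1 to KO 3, against 167, 122 and 186 counts in WT 1 to WT 3. KO 3 and WT 2 stood apart from the other libraries on the first principal component (66.8 for KO 3, -65.0 for WT 2, and -13.1 to 8.24 for the other 4). The brown fat genes Ucp1 and Cidea were abundant in all 6 libraries. Transcripts encoded in mitochondrial DNA made up 34.1, 28.2 and 19.7% of counts in KO and 32.5, 43.0 and 30.3% in WT, lowest in KO 3 and highest in WT 2. For the 10 genes, and for medians or single genes of most pathway lists, values without both of these libraries are given as well.

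Elovl3 was the 1 member whose KO and WT libraries did not overlap. It had 239, 171 and 987 counts in KO 1 to KO 3, against 77, 27 and 111 counts in WT 1 to WT 3. In CPM, counts scaled to library size with TMM factors, this was 10.9, 7.34 and 48.2 in KO and 3.11, 1.80 and 3.27 in WT. All 3 KO values exceeded all 3 WT values, with KO 3 far above the other KO libraries. The mean was 22.1 ± 22.7 CPM in KO and 2.73 ± 0.805 CPM in WT (SD, n = 3 each). The log2 fold change, KO over WT, was 2.99 (SE 0.65) and did not pass the threshold of 0.05 (edgeR quasi-likelihood test, adjusted p = 0.305 over 15123 genes). DESeq2 called it (log2 3.02, SE 0.85, adjusted p = 0.0397). Without a filter edgeR called it too (adjusted p = 2.61e-25). In that fit the median residual and prior degrees of freedom were 111496, against 9.61 in the main fit, so its p-values are not comparable. In the other alternatives (edgeR and limma-voom) the adjusted p ran from 0.126 to 0.482. In tissue RNA, a change in the cells that express a gene and a change in RNA per cell cannot be told apart.

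By unadjusted p (0.00113, edgeR), 51 of 15123 genes had a smaller value than Elovl3. By log2 fold change it stood below 6 of the 13219 genes with a mean of at least 1 CPM. Without KO 3 the log2 fold change was 1.72 (SE 0.33), and without both KO 3 and WT 2 it was 1.51 (SE 0.28, edgeR adjusted p = 0.140). KO 3 thus accounts for much of the mean, while KO 1 and KO 2 also lay above all WT libraries.

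**Figure D1:**
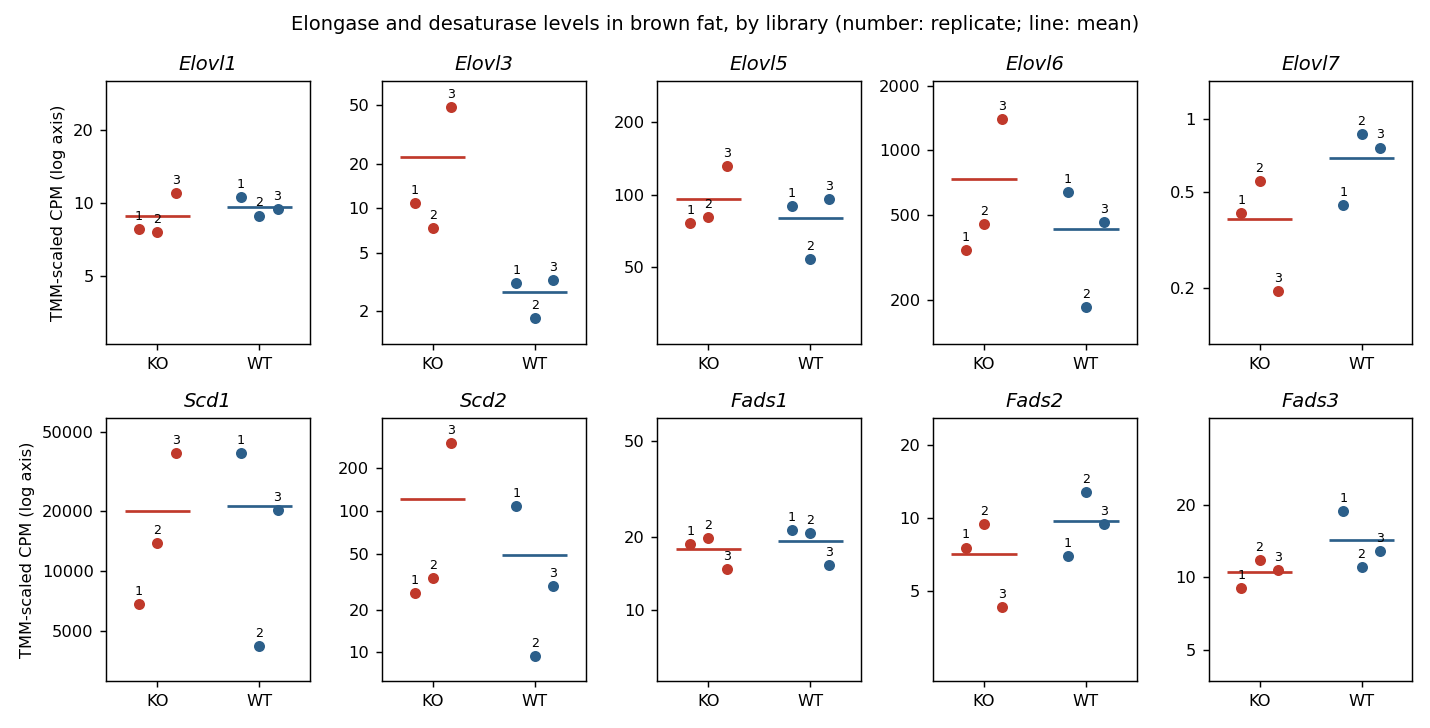
Level of each of the 10 genes in TMM-scaled CPM on log axes, with a point per library numbered by replicate and a line at the group mean (KO left, WT right). The KO and WT points are separate for Elovl3 (7.34 to 48.2 against 1.80 to 3.27 CPM) and overlap for the other 9 genes.

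Elovl6, the palmitate elongase, was the most abundant elongase and spread widely within each group. It was at 340, 454 and 1410 CPM in KO 1 to KO 3, against 637, 185 and 462 CPM in WT 1 to WT 3. KO 3 was the highest and WT 2 the lowest, and of the other 4 libraries both WT values exceeded both KO values. The log2 fold change was 0.78 (SE 0.56, edgeR adjusted p = 0.560), and it was -0.11 (SE 0.43) without KO 3. Elovl5 showed the same order at its ends, with 75.9, 80.6 and 131 CPM in KO and 89.8, 53.9 and 96.2 CPM in WT (log2 0.26, SE 0.27, edgeR adjusted p = 0.692).

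Elovl1, which makes very long saturated chains used in sphingolipids, was nearly level across libraries. Its values were 7.82, 7.60 and 10.9 CPM in KO and 10.6, 8.87 and 9.42 CPM in WT, and the groups overlapped (log2 -0.13, SE 0.22, edgeR adjusted p = 0.807). Elovl7 was close to the detection limit, with 9, 13 and 4 counts in KO and 11, 13 and 26 counts in WT. The estimate for Elovl7, log2 -0.80 with SE 0.57 (edgeR adjusted p = 0.555), rests on 76 counts in all.

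The balance among elongases was then set out within each library. Elovl3 made up 2.50% (95% exact Clopper-Pearson interval 2.19 to 2.83%), 1.33% (1.14 to 1.55%) and 3.01% (2.83 to 3.20%) of the counts of the 5 elongases in KO 1 to KO 3. In WT 1 to WT 3 it made up 0.420% (0.331 to 0.524%), 0.718% (0.474 to 1.04%) and 0.572% (0.470 to 0.688%). The intervals, which cover counting error only, did not overlap between the groups. Per length, in counts per kilobase of exon, the Elovl3 share was 6.63, 3.71 and 8.57% in KO and 1.21, 1.88 and 1.58% in WT. The means were 6.30 ± 2.44% in KO and 1.56 ± 0.336% in WT (SD, n = 3 each), a difference of 4.75 percentage points (exact two-sided permutation p = 0.1, the smallest that 3 libraries against 3 allow). Leaving out any 1 library gave differences of 3.61 to 6.04 points. KO 3, the highest in Elovl6 as well, did not stand far from KO 1 in this share, whereas it was far above it in Elovl3 CPM.

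**Figure D2:**
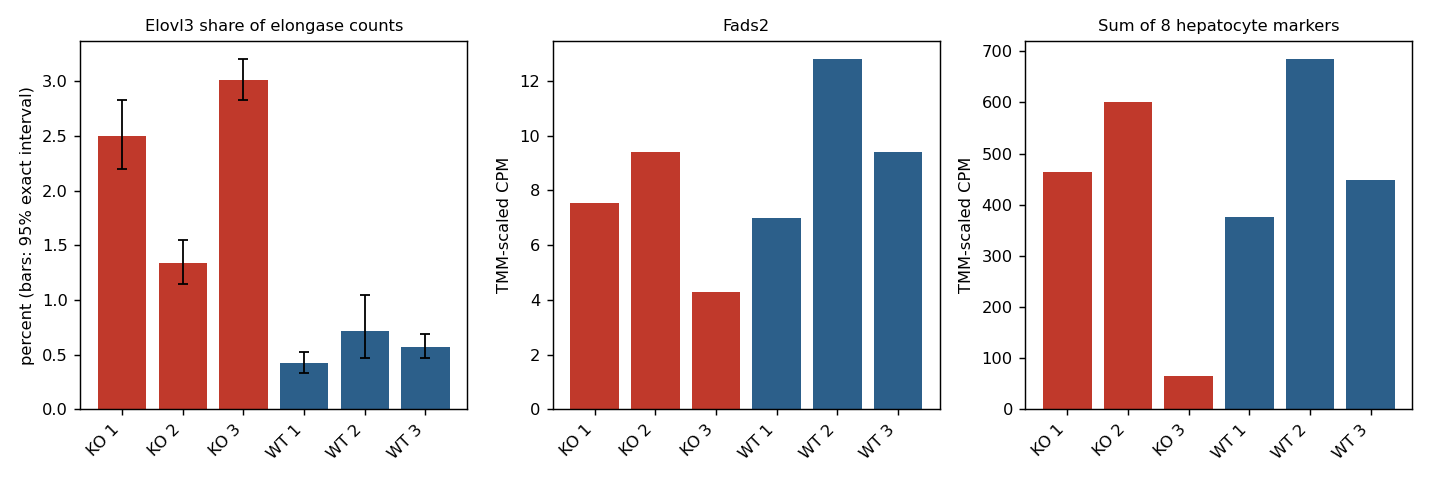
Bars give, for KO 1 to KO 3 and then WT 1 to WT 3, the Elovl3 share of the counts of the 5 elongases in percent with 95% exact intervals, the level of Fads2 in TMM-scaled CPM, and the summed level of 8 hepatocyte markers in TMM-scaled CPM. The Elovl3 share is 1.33 to 3.01% in KO and 0.420 to 0.718% in WT, and KO 3 has the lowest Fads2 and the lowest hepatocyte sum.

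Scd1 was the most abundant of the 10 genes by far and showed no shift between the groups beyond their spread. It was at 6870, 13914 and 39214 CPM in KO 1 to KO 3, against 39061, 4236 and 20322 CPM in WT 1 to WT 3. High and low libraries occurred in both groups: KO 3 and WT 1 were nearly equal at the top, and WT 2 was lowest. Scd1 alone took 4.23% of all counts in KO 3 and 0.692% in KO 1, against 3.87% in WT 1 and 0.352% in WT 2. The log2 fold change was -0.08 with an SE of 0.75 (edgeR adjusted p = 0.968), so the spread leaves room for sizeable changes in either direction. It was -1.03 (SE 0.73) without KO 3 and 0.70 (SE 0.79) without WT 1.

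Scd2, the paralogue that is prominent in brain and in early life in mice, was at 26.1, 33.4 and 305 CPM in KO and 108, 9.41 and 29.4 CPM in WT. KO 3 was highest, followed by WT 1, and WT 2 was lowest, so the groups overlapped (log2 1.30, SE 0.99, edgeR adjusted p = 0.584). Without KO 3 the log2 fold change was -0.72 (SE 0.76). Per 100 Scd1 counts there were 0.380, 0.240 and 0.777 Scd2 counts in KO and 0.277, 0.222 and 0.145 in WT. KO 3 and WT 1 had nearly the same Scd1 level but differed in Scd2, at 305 CPM in KO 3 and 108 CPM in WT 1. The ratio of Scd2 to Scd1 counts thus varied between libraries, and the part of reads shared with other SCD genes in the Scd2 counts was not tested. Scd1 made up 99.54 ± 0.276% of the counts of both genes in KO and 99.79 ± 0.0664% in WT (SD, n = 3 each), a difference of -0.249 percentage points (exact two-sided permutation p = 0.2). Scd3, outside the 10 genes, ranged from 0.364 CPM in KO 1 to 61.2 CPM in KO 3, against 0.800 CPM in WT 2 to 10.7 CPM in WT 1.

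Fads1 and Fads2 had their lowest value in the library that was highest for both SCD genes. Fads1, which places a double bond late in the synthesis of arachidonate, was at 18.7, 19.9 and 14.8 CPM in KO and 21.4, 20.8 and 15.2 CPM in WT. Fads2, which acts at the start of that path, was at 7.55, 9.40 and 4.30 CPM in KO and 6.99, 12.8 and 9.42 CPM in WT. That library was KO 3 for both genes, though for Fads1 WT 3 was nearly as low. KO 3 was the lowest library for 3 of the 10 members and for 26.6% of all genes tested. For Fads2, WT 2, the lowest for Elovl6 and Scd1, was the highest. The summed level of 8 hepatocyte markers was likewise lowest in KO 3 (66.0 CPM) and highest in WT 2 (685 CPM), and the part of liver-type RNA in the Fads2 values was not tested. On the log2 scale Fads1 stood at -0.11 (SE 0.20, edgeR adjusted p = 0.835) and Fads2 at -0.45 (SE 0.33, edgeR adjusted p = 0.565). Fads3, a related desaturase, was at 9.05, 11.8 and 10.7 CPM in KO and 18.8, 11.1 and 12.9 CPM in WT (log2 -0.44, SE 0.24, edgeR adjusted p = 0.471). It was lowest in KO 1 and highest in WT 1, and its lowest WT library lay within the KO range. Its log2 fold change was negative with every library left out in turn (-0.59 to -0.19).

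Per kilobase of exon the levels could be ordered. In KO the order of mean CPM per kilobase was Scd1 (4088), Elovl6 (114), Elovl5 (27.3), Scd2 (22.2), Elovl3 (11.2), Fads1 (3.69), Elovl1 (3.22), Fads3 (2.78), Fads2 (2.15) and Elovl7 (0.0966). In WT it was Scd1 (4335), Elovl6 (66.6), Elovl5 (22.7), Scd2 (8.98), Fads1 (3.98), Fads3 (3.76), Elovl1 (3.53), Fads2 (2.96), Elovl3 (1.38) and Elovl7 (0.172). Elovl3 had rank 5 in KO and rank 9 in WT. In KO the ranges of all neighbours in the order from Elovl5 to Fads2 overlapped, and those of Scd1, Elovl6 and Elovl5 were apart. In WT the ranges overlapped from Elovl5 to Fads2, and Elovl3 lay below the range of Fads2 in all 3 libraries.

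Across the 10 genes 0 passed the threshold in edgeR, against 0.0595% of all 15123 genes tested (0.0198% higher and 0.0397% lower in KO). At an unadjusted p under 0.05 there was 1 member, Elovl3, higher in KO, and 0 lower, against 11.8% of all genes (6.3% higher and 5.49% lower). The groups did not overlap for 1 of the 10, with KO above WT, and for 0 with KO below WT, against 19.5% of all genes (10.1% and 9.39%). By these 2 counts the share of members was close to or below that of all genes. DESeq2 called 1 member, Elovl3, higher in KO, and 0 lower, against 1.12% of its tested genes (0.571% higher and 0.551% lower). Their median log2 fold change was -0.095, beside -0.0020 over all genes, and 4 of the 10 values were positive.

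What recurred among the members was an order of libraries. Elovl3, Elovl5, Elovl6, Scd1 and Scd2 were all highest in KO 3 and lowest in WT 2, which was so for 13.7% of all genes tested. Without both KO 3 and WT 2 the log2 fold changes of Elovl6 and Elovl5 were -0.47 (SE 0.21) and -0.25 (SE 0.14), those of Scd1 and Scd2 -1.51 (SE 0.37) and -1.21 (SE 0.48), and that of Elovl3 1.51 (SE 0.28). None of these passed (edgeR adjusted p 0.140 to 0.680). Leaving out the highest KO and the lowest WT library lowers the values of these 5 genes by construction. Elovl3 was the 1 of them that was positive there, with KO 1 and KO 2 above all WT libraries. In the same fit Elovl1 stood at -0.37 (SE 0.21), Elovl7 at -0.33 (SE 0.64) and Fads3 at -0.60 (SE 0.25). Over the 10 genes 0 passed, 3 were positive and the median was -0.35, beside -0.0067 over all genes.

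**Figure D3:**
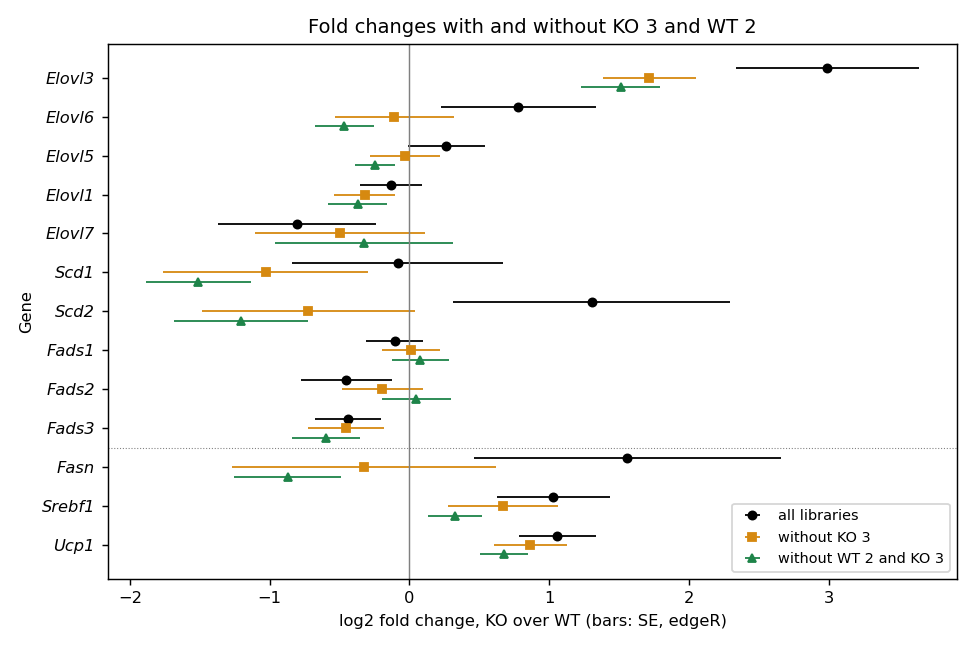
Log2 fold change of KO over WT with its SE (edgeR) for the 10 genes and, under the dotted line, Fasn, Srebf1 and Ucp1, from all 6 libraries, without KO 3, and without both WT 2 and KO 3. Elovl3 runs from 1.51 to 2.99 over these 3 fits, while Elovl5, Elovl6, Scd2, Fads1, Fads2 and Fasn change sign.

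Windows from 250 bases before to 50 bases after the start of a gene (RefSeq, GRCm38.p6) were at hand for 6 members, with none for Elovl3, Scd1, Scd2 or Fads1. The 250 bases before the start are shown for Elovl5 (chr9:77917115-77917364, plus strand) and Elovl6 (chr3:129532136-129532385, plus strand), the members with a window that shared the library order. Capitals mark the E-box CACGTG and the CCAAT box, which reads ATTGG where it lies on the opposite strand.
Elovl5: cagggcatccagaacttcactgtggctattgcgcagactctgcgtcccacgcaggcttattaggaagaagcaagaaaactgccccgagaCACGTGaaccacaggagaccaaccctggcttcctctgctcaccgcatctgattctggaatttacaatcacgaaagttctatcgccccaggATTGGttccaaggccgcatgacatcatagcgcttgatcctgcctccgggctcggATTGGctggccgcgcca
Elovl6: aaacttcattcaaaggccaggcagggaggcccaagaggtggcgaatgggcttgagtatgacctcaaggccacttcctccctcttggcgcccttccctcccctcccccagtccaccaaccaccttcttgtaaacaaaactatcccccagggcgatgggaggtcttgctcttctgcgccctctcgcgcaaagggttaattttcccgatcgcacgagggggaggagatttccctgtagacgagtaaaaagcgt
The Elovl5 window held 1 E-box, found in 7.15% of all 32851 windows, and 2 CCAAT boxes, a motif found in 37.4%. The Elovl6 window held neither. The sterol regulatory element was searched as TCACNCCAC and the LXR element as AGGTCA repeated after any 4 bases, on both strands, and neither was found in the windows of the 6 members (1.24% and 0.0152% of all windows). Absence of these letters says nothing of factors that bind other letters or other places.

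Genes that feed these enzymes showed the same library order. All 10 genes listed for malonyl-CoA, palmitate and NADPH supply were highest in KO 3 and lowest in WT 2. Fasn, which encodes fatty acid synthase, had 2383, 4446 and 30944 CPM in KO and 8677, 305 and 3854 CPM in WT (log2 1.56, SE 1.10, edgeR adjusted p = 0.555). Acaca, which makes malonyl-CoA, was at 476, 762 and 3749 CPM in KO and 1636, 216 and 766 CPM in WT (log2 0.93, SE 0.81). In that list 0 genes passed, 10 of 10 had positive log2 fold changes and the median was 0.93. Leaving out KO 3, the highest library, and WT 2, the lowest, lowers all 10 values by construction. Without both KO 3 and WT 2, a setting applied to the lists after their values were seen, 0 passed, 1 of 10 was positive and the median was -0.37. Fasn then stood at -0.87 (SE 0.38) and Acaca at -0.95 (SE 0.34).

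Enzymes that complete each elongation round or pass electrons to the desaturases made up a further list. Of its 11 genes 10 were tested, 0 passed, 8 were positive and the median log2 fold change was 0.26, which was 0.061 without both KO 3 and WT 2. Hsd17b12, which carries out the reduction step after condensation, was at 272, 284 and 349 CPM in KO and 240, 176 and 264 CPM in WT, with the KO libraries above the WT libraries (log2 0.41, SE 0.21, edgeR adjusted p = 0.452, and 0.14, SE 0.15, without both KO 3 and WT 2). Cyb5b, a form of cytochrome b5, was at 194, 190 and 395 CPM in KO and 247, 151 and 177 CPM in WT (log2 0.44, SE 0.31, and -0.14, SE 0.18, without both KO 3 and WT 2). Cyb5a, another form in the list, had the reverse order, lowest in KO 3 and highest in WT 2. It was at 150, 129 and 82.9 CPM in KO and 162, 200 and 148 CPM in WT (log2 -0.49, SE 0.24, edgeR adjusted p = 0.434, and -0.15, SE 0.15, without both KO 3 and WT 2). Among 7 tested of 8 listed acyl-CoA synthetases 0 passed, with Acsl1 at log2 0.21 (SE 0.24) and Slc27a2 at -0.34 (SE 0.17). The median of that list was 0.24, and -0.036 without both KO 3 and WT 2. Among other elongase and desaturase genes 5 of 7 were tested and 0 passed. Degs1, the ceramide desaturase, stood at log2 -0.18 (SE 0.16) and Scd3 at 1.66 (SE 1.23), which was -1.42 (SE 0.81) without both KO 3 and WT 2.

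Among 18 listed regulators of lipid synthesis genes, 0 passed. At an unadjusted p under 0.05 (edgeR) there were 2, Srebf1 and Mlx, both higher in KO, beside 11.8% of all genes (6.3% higher). Srebf1 was at 204, 252 and 424 CPM in KO and 154, 65.9 and 211 CPM in WT, with KO 1 below WT 3 (log2 1.03, SE 0.40, edgeR adjusted p = 0.401). The value was 0.33 (SE 0.19) without both KO 3 and WT 2. Mlx was at 24.6, 26.1 and 29.0 CPM in KO and 18.3, 18.4 and 19.3 CPM in WT. Its log2 fold change was 0.51 (SE 0.16, edgeR adjusted p = 0.350), and 0.43 (SE 0.16) without both KO 3 and WT 2. Thrsp, a lipogenic cofactor gene, stood at log2 0.03 (SE 0.32) and Mlxipl, which encodes ChREBP, at 0.07 (SE 0.25), and without both KO 3 and WT 2 they stood at -0.36 (SE 0.15) and -0.31 (SE 0.14). Of 12 listed PPAR and brown fat regulators 0 passed, with Cebpa at log2 0.46 (SE 0.33) and Pparg at -0.28 (SE 0.17). Ucp1, the uncoupling protein, was at 4607, 3765 and 5974 CPM in KO and 2400, 1638 and 2853 CPM in WT (log2 1.06, SE 0.28, edgeR adjusted p = 0.310). As for Elovl3, the KO libraries lay above the WT libraries, and DESeq2 called Ucp1 (adjusted p = 0.00922). Its log2 fold change was 0.67 (SE 0.17) without both KO 3 and WT 2.

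**Figure D4:**
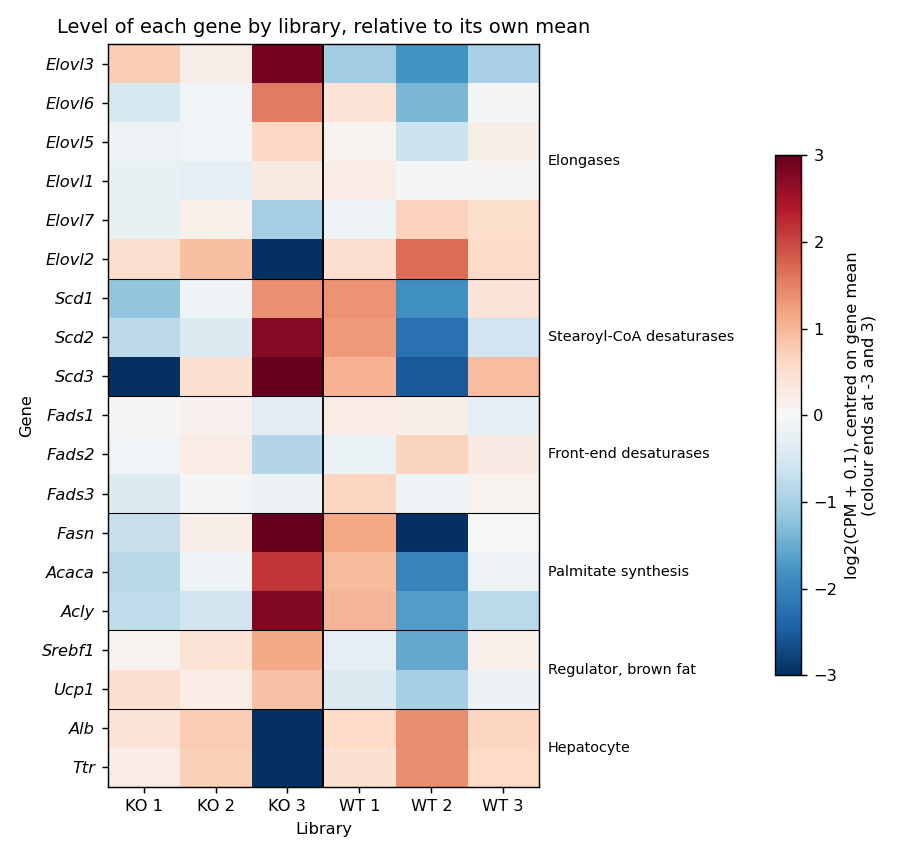
Heat map of log2(CPM + 0.1) for genes in rows and libraries in columns (KO 1 to KO 3 left of the line, WT 1 to WT 3 right), each row centred on its own mean, with colours ending at -3 and 3. KO 3 and WT 2 are at opposite ends for Elovl6, Scd1, Scd2 and Fasn, the reverse holds for Elovl2, Alb and Ttr, and Elovl3 is below its mean in all 3 WT libraries.

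Markers of other cells were set beside these values. Elovl3 is also expressed in sebaceous glands and in mouse liver. Of 9 sebaceous gland and skin markers 5 had 0 counts in all 6 libraries (Krt5, Krt14, Krt15, Awat1 and Defb6), and the summed level was 12.1, 11.6 and 17.8 CPM in KO and 10.4, 8.07 and 9.45 CPM in WT. The groups did not overlap in this sum, which was mostly the keratin gene Krt79 (10.4, 8.88 and 16.2 CPM in KO and 7.76, 6.27 and 5.74 CPM in WT). Of the 3 markers tested 0 passed and 1, Krt79, was positive, and the median log2 fold change was -0.38. Far2 was lower in every KO library than in any WT library (log2 -0.38), with 1.53 to 2.06 CPM in WT, and Mc5r stood at log2 -0.98. Lymphocyte markers also separated the groups, with sums of at least 11.7 CPM in every KO library and at most 9.17 CPM in every WT library, mostly the immunoglobulin gene Ighm. Of that list 3 of 7 were tested and 0 passed in edgeR, while DESeq2 called 1, Ighm (adjusted p = 0.0403). The part of these cells in the Elovl3 values was not tested. Endothelial markers, 6 of 6 positive with 0 passing, summed to 326, 507 and 677 CPM in KO and 368, 264 and 415 CPM in WT. The sum was highest in KO 3 and lowest in WT 2, as Elovl6 and Scd1 were, and the part of these cells was not tested either. Of the 6 endothelial genes, 5 were highest in KO 3 and 4 lowest in WT 2. Their median log2 fold change was 0.43, and without both KO 3 and WT 2 it was 0.090, with 4 of 6 positive. All 8 hepatocyte markers were detected, with a summed level of 463, 600 and 66.0 CPM in KO 1 to KO 3 and 376, 685 and 449 CPM in WT 1 to WT 3. KO 3 was the lowest library for all 8, while it was the highest for Elovl3. Fads2 and, outside the 10 genes and picked after its values were seen, the liver elongase gene Elovl2 had their lowest value in KO 3 and their highest in WT 2, as the hepatocyte sum did. Elovl2 was at 3.64, 4.85 and 0.0489 CPM in KO and 3.68, 8.34 and 3.86 CPM in WT. Its KO 3 value rests on 1 count, below the level of 3 counts in that library (0.147 CPM).

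Schwann cells, which use Scd2 and Elovl1 for myelin lipids, were represented by 10 markers, all tested. Their summed level was 147 to 215 CPM in KO and 165 to 182 CPM in WT, and 0 of 10 passed in edgeR. Of the 10, 6 were highest in KO 3, as Scd2 was, and their part in the Scd2 values was not tested. The summed level of 7 adipocyte markers was 16153 to 19373 CPM in KO and 15328 to 18694 CPM in WT. White adipocyte markers summed to 38.4 to 75.3 CPM in KO and 62.3 to 151 CPM in WT. Macrophage markers summed to 108, 96.1 and 59.1 CPM in KO and 78.7, 125 and 98.4 CPM in WT. Both of these sums were lowest in KO 3 and highest in WT 2, as Fads2 was, and their part was not tested. Not all genes of the lists had this order. Of the 6 macrophage markers 4 were lowest in KO 3, but only 1 was highest in WT 2. That was Lyz2, the largest part of the sum (84.5 CPM in WT 2). Of the 6 white adipocyte markers tested, 3 were lowest in KO 3 and 3 highest in WT 2. Erythrocyte markers summed to 499 to 759 CPM in KO and 723 to 901 CPM in WT, and skeletal muscle markers to 1.96 to 39.3 CPM in KO and 8.73 to 46.1 CPM in WT.

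Among the genes most like Elovl3 over the 6 libraries were Vil1, Hapln4, Bbc3 and Arhgef19, by the root mean square difference of mean-centred log2 CPM (0.43 to 0.53) among the 13219 genes with a mean of at least 1 CPM. Among the members Elovl6 was nearest to Elovl3, at rank 200 (1.04), and Scd1 stood at rank 5541 (1.51). Ucp1 stood at rank 112 (0.97) and Srebf1 at rank 83 (0.94). The genes most like Scd1 were Gm5182, Acaca, Ube2ql1, Gm47976 and Eml6 (0.40 to 0.51), with Elovl6 at rank 9 (0.55) and Scd2 at rank 72 (0.75). Acaca was thus nearer to Scd1 than any of the other members.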

How the data were processed

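Poly(A) RNA of brown fat was counted per gene in 3 KO and 3 WT libraries. The deposited values are raw counts, whole numbers without normalization. The submitters' processing notes name mm10 as the build and, as tools, DESeq2 (no version), featureCounts 1.6.2 and HISAT2 2.1.0. The library kit keeps strand, per the labels' protocols. Neither the annotation release nor the strand setting of the counting, nor how reads that fit several genes were treated, is given in the sources used here.

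Of 53715 identifiers 53620 had a symbol, position and exon length in GENCODE release M 21 (mm10). Lengths are unions of all annotated exons, which can understate the level of genes with several transcripts. The filter filterByExpr, with a minimum count of 10 and a minimum total of 15, left 15123 genes, all 10 members among them. The fold change of KO over WT was fitted with edgeR's quasi-likelihood method, TMM scaling and genotype as the only term (edgeR 4.0.16, limma 3.58.1, R 4.3.3), adjusted over all genes by Benjamini-Hochberg. SE is the log2 fold change over the root of the F statistic. The planned comparison of 4 KO against 3 WT became 3 against 3. The script was tested on simulated data. For log2 CPM a prior count of 2 was added. A level of 3 counts, the limit that a count of 0 allows, was 0.0883 to 0.200 CPM. Named genes are the 10 members, of each list those past the threshold or else the 2 of highest level, Pgam5, Fasn, Srebf1, Ucp1 and the 5 genes most like Elovl3 and the 5 most like Scd1. Some genes that meet this rule are not reported here. Elovl2, Cyb5a, Cidea, Mlx, Krt79, Far2, Mc5r, Ighm, Alb, Ttr and Gm35986 were added after their values were seen. Members and lists were chosen with earlier results of these data known. Libraries of a group are separate individuals by the design text, and no pair differed by as little as sampling noise. Other settings were DESeq2 1.42.0, edgeR with its size factors, limma-voom, other filters, a robust fit, a replicate block, leaving out mitochondrial genome genes and leaving out libraries. Sequences came from GENCODE and RefSeq. Figures used Python 3.11.15 and matplotlib 3.10.9.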

Additional observations from a re-analysis of the deposited data

How the results depend on the processing

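Elovl3 kept its direction in all 15 alternatives (log2 1.51 to 3.41; 1.72 to 3.41 with single libraries left out). It passed with DESeq2 (log2 3.02, SE 0.85) and with edgeR without a filter (log2 3.00, SE 0.27), where the median residual and prior degrees of freedom were 111496 against 9.61. DESeq2 called 1 member higher, and edgeR without a filter 3 (Elovl3, Elovl6 and Scd2); no other alternative called any. Over all genes 3 were higher and 6 lower in KO; DESeq2 gave 85 and 82, no filter 330 and 333, leaving out WT 2 and KO 3 together 14 and 13, and single libraries 0 to 9 and 0 to 9. With the replicate number as a block, 1 gene was higher, Elovl3 stood at 2.62 (edgeR adjusted p = 0.126) and Scd1 at 0.20. Same-numbered libraries had correlations of deviations of -0.11, 0.10 and 0.091, and differently numbered ones -0.26 to 0.25. With 3 libraries per group, of which KO 3 and WT 2 stood apart, these values cannot decide on pairing. The numbers were not taken as pairs in the main fit.

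Signs changed as follows. Without WT 2 and KO 3 together the log2 values were -0.25 for Elovl5, -0.47 for Elovl6, -1.21 for Scd2, 0.078 for Fads1, 0.048 for Fads2 and -0.87 for Fasn. Scd1 was 0.10 with limma-voom. With single libraries left out the ranges were -0.032 to 0.42 for Elovl5, -0.11 to 1.18 for Elovl6, -1.03 to 0.70 for Scd1, -0.72 to 2.63 for Scd2, -0.25 to 0.012 for Fads1 and -0.33 to 2.60 for Fasn. The cause was not tested. Elovl1, Elovl7 and Fads3 kept their sign in every alternative that gave a value; Elovl7 had none where a mean of 1 CPM was required. The difference in the Scd1 share was -0.361 to -0.0949 points with single libraries left out and -0.223 per length, and that in the Elovl3 share was 1.71 points by counts. Counts limit Elovl7 most, with 76 in all.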

Other observations

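Scd1 was also set against Fasn within each library, a ratio chosen after the values were seen and not tested. Per 100 Fasn counts there were 288, 313 and 127 Scd1 counts in KO 1 to KO 3, against 450, 1390 and 527 in WT 1 to WT 3, so the KO libraries lay below the WT libraries although neither gene was separated by itself. Elovl6 per 100 Fasn counts was 14.3, 10.2 and 4.56 in KO and 7.35, 60.8 and 12.0 in WT, and the groups overlapped. Elovl3 per 100 Elovl6 counts was 3.19, 1.62 and 3.42 in KO and 0.488, 0.972 and 0.707 in WT. An antisense gene inside the Elovl6 locus, Gm35986, had 16, 12 and 58 counts in KO and 92, 11 and 17 counts in WT, far below Elovl6 in each library.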
